A study of Mus musculus with 32 samples.

Results

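The genes described here are those of the cytosolic ribosomal proteins (RP), chosen by symbol: names that begin with Rpl or Rps and a digit, plus Rplp0, Rplp1, Rplp2 and Rpsa, without pseudogene rows and without the Rps6k kinases. The rule took 86 of 31053 annotated genes, 52 with large subunit names and 34 with small subunit names. All 86 had at least 1 UMI (unique molecular identifier, a count of 1 captured molecule) in the cells kept. For testing, 84 passed the filter on low counts in every comparison, and Rpl3l (463 UMIs in all kept cells) and Rpl10l (11 UMIs) did not. The rule also takes names that are not standard subunits: 9 members are RP-like paralogs or other proteins, among them Rpl7l1 and Rps19bp1, which are not counted as parts of the mature ribosome. Fau and Rack1, which are ribosome components under other names, fall outside it and are given beside it.

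A ribosome reads messenger RNA into protein. Its small subunit holds the decoding site and its large subunit the site where peptide bonds are made, and each cytosolic RP is present about once per particle, except for the P-stalk proteins Rplp1 and Rplp2. Most RP messenger RNAs begin with a run of pyrimidines at the 5′ end (the TOP motif), through which the mTOR pathway and Larp1 adjust their translation together. Surplus RPs that are not built into subunits are degraded, and the 5S RNP, which holds Rpl5 and Rpl11, can bind Mdm2 and so act on p53. Loss of function of a single allele of certain RP genes causes Diamond-Blackfan anemia.

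The samples were bone marrow-derived stromal cells from Diversity Outbred (DO) mice, a genetically mixed outbred stock, grown from femoral marrow and differentiated in osteogenic medium into mineralizing cultures (BMSC-OBs). Every sample had the same treatment, so the design holds no treated and control groups. Cells of 77 mice, 4 or 5 to a pool, were run as 16 pools (numbered 1 to 14, 17 and 18) on 10x Genomics 3′ v2 chemistry, each pool in 2 sequencing runs. Mice within a pool were not separated here, so the pool was the replicate, and a pool's mice, culture and library cannot be told apart. Run HGYVNCCX2 held 107853 barcodes with 53990642 to 100777353 UMIs per pool, of which 90924 were kept (2684 to 7643 per pool). Between 84.5% and 99.8% of a pool's barcodes were also called in run HHFFMCCX2, so that run was used only as a repeat. Pools shared between 0.0545% and 0.434% of their barcodes with each other.

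Cells were sorted into classes by markers that contain no RP gene, and cells that reached no class with a clear margin stayed ungated (36563 cells). The classes were late mesenchymal progenitors (LMPs, 10166 cells), osteoblasts (14802), osteocyte-like cells (5015), marrow adipogenic lineage progenitors (MALPs, 8753), macrophages (10049), granulocytes (2940), osteoclast-like cells (1156), T cells (801), B cells (582) and endothelial cells (97). The leading genes of each class were of the labelled type, for example Aspn, Acta2 and Tagln in LMPs, Mepe, Sost and Phex in osteocyte-like cells, Adipoq in MALPs, C1qa in macrophages and Trbc2, Cd3g and several granzymes in T cells. RNA of osteoblasts was counted in every class: the 8 osteoblast markers summed to 124855 CPM (UMIs scaled to one common library total) in osteoblasts, 9694 in macrophages and 11986 in T cells. Median depth per cell ran from 2983 UMIs in granulocytes and 4661 in macrophages to 18508 in LMPs and 18882 in osteoblasts.

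The starts of some members described below are shown first, because the TOP motif lies there. RefSeq promoter windows (GRCm38.p6, 250 bases before to 50 after the start) were matched for 66 of the 86 genes. Those without a window include Rpl3, Rpl29, Rps20, Rps29 and Rplp1. The following stretches hold 15 bases before and 15 from the annotated start, 5′ to 3′ on the gene's strand, and capitals mark any of 3 pyrimidine-rich runs. These are CTTTCC, then the run CCTTTC that can overlap it, and as the last of them CTCTTTC.
Rpl35 (chr2:39005117-39005146, minus strand): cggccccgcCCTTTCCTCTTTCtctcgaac
Rpl15 (chr14:18270972-18271001, minus strand): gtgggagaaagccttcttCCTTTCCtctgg
Rpl38 (chr11:114668565-114668594, plus strand): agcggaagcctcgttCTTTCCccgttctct
Rps27 (chr3:90213634-90213663, minus strand): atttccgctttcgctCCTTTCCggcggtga
Rps27l (chr9:66946071-66946100, plus strand): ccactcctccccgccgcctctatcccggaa
Rpl39 (chrX:37085208-37085237, minus strand): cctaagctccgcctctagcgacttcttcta
Rpl39l (chr16:10170213-10170242, plus strand): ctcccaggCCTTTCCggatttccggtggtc
Rpl22 (chr4:152325711-152325740, plus strand): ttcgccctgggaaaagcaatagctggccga
Rpl22l1 (chr3:28805493-28805522, plus strand): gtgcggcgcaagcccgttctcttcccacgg

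Searched on the gene's strand from 20 bases before to 30 after the start, at least 1 of the 3 pyrimidine runs was present in 21 of 66 RP genes (31.8%) against 4.73% of 27025 genes with a window. The whole 300-base window was searched on both strands for 5 other motifs. The ETS core CCGGAAG was present in 39.4% of RP genes and 9.93% of all genes, TCGCGAGA in 16.7% and 1.13%, the YY1-type AAGATGGC in 9.09% and 3.19%, the Sp1 core GGGCGG in 62.1% and 38.2%, and the TATA box core TATAAA in 10.6% and 15.7%. Such matches describe the letters only. Rps27 and Rpl39l held at least 1 of the 3 runs in the printed stretch, and their partners Rps27l and Rpl39 held none of them. Both partners do hold other stretches of pyrimidines. The Rpl39l run lies before the annotated start, and Rps27l and Rpl22 have 2 annotated starts each, of which 1 is printed. Rpl12, Rpl36al, Rps18, Rps2, Rps3 and Rpl4, also described below, hold none of the 3 runs in the matching stretch and are not printed.

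How much of a cell's messenger RNA codes for RPs was asked first. RP genes made up 19.3% ± 1.71 (SD, n = 16 pools) of all UMIs. The share was highest in T cells, at 30.2% ± 2.63 (n = 5), and next in LMPs, at 23.7% ± 2.53 (n = 16). It was lower in osteoblasts (18.2% ± 1.82, n = 16), granulocytes (16.5% ± 2.44, n = 12), macrophages (15.8% ± 1.68, n = 16), osteoclast-like cells (15.7% ± 3.12, n = 10), MALPs (15.4% ± 2.06, n = 16), osteocyte-like cells (15.1% ± 1.94, n = 16) and B cells (13.5% ± 4.03, n = 8). Neighbors in this order were compared within pools by exact sign-flip permutation tests. LMPs stood above osteoblasts in 16 of 16 pools (adjusted p = 0.000244, 8 comparisons), while none of the other neighbors differed past the threshold: T cells were above LMPs in 5 of 5 pools, where 5 pools cannot give a p below 0.0625 (adjusted p = 0.167), and the steps from osteoblasts down to B cells had adjusted p between 0.0957 and 0.994 by the same permutation test.

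**Figure D1:**
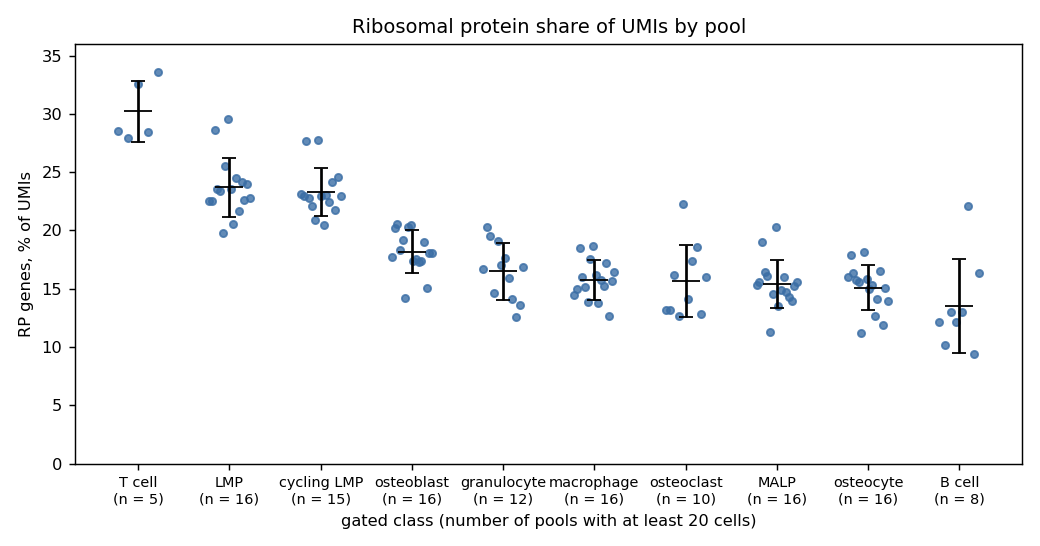
RP share of UMIs (y axis, percent) by gated class (x axis, with the number of pools holding at least 20 cells). Each point is 1 pool, and the bar and whiskers are the mean and SD over pools. All 5 T cell pools lie between 28.0% and 33.6%, and the LMP pools between 19.8% and 29.5%.

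Along the mesenchymal lineage the share fell step by step. In LMPs the lowest, median and highest pool held 19.8%, 23.5% and 29.5%, in osteoblasts 14.2%, 18.1% and 20.6%, and in osteocyte-like cells 11.2%, 15.4% and 18.2%. The ranges of neighboring classes overlap, but within each pool the order was the same in 16 of 16 pools. The log2 ratio of the share was -0.38 ± 0.11 (SD over pools) for osteoblasts over LMPs, -0.27 ± 0.09 for osteocyte-like cells over osteoblasts and -0.63 ± 0.12 for MALPs over LMPs, each with an adjusted p of 5.34e-05 (exact sign-flip permutation test, 7 comparisons). The same test gave -0.59 ± 0.09 for macrophages over LMPs (adjusted p = 5.34e-05, lower in 16 of 16 pools).

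The share depends on what else a cell makes. The 10 most abundant other genes, led by Ibsp and Col1a1, took 21.7% of UMIs in osteoblasts and 27.3% in osteocyte-like cells, but 6.98% in LMPs. With mitochondrial genes and the 50 most abundant other genes left out of the total, the log2 ratio for osteoblasts over LMPs was -0.11, with 14 of 16 pools lower, in place of -0.38, and for osteocyte-like cells over osteoblasts -0.16 in place of -0.27. For MALPs and macrophages over LMPs the values without these genes were -0.65 and -0.54.

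Among blood cells, T cells held 1.98 times the RP share of macrophages, higher in 5 of 5 pools: 28.5%, 28.0%, 32.5%, 28.4% and 33.6% in pools 5, 6, 8, 14 and 18, against 12.7% to 18.7% in their macrophages. The groups do not overlap. The exact test gave p = 0.0625, the smallest that 5 pools allow. Cycling genes moved with this comparison, with the 8 cycling markers at 1060 CPM in T cells and 366 CPM in macrophages, and their part in the result was not tested. Granulocytes did not differ from macrophages in share past the threshold (log2 ratio 0.07 ± 0.18, higher in 8 of 12 pools, exact sign-flip adjusted p = 0.252), but with abundant genes such as S100a8 and S100a9 left out of the total they were higher in 12 of 12 pools (log2 ratio 0.28, adjusted p = 0.000854 by the same permutation test). Cycling LMPs did not differ from other LMPs past the threshold (log2 ratio -0.02 ± 0.06, higher in 7 of 15 pools, exact sign-flip adjusted p = 0.33), but with abundant genes left out of the total they were lower past the threshold (log2 ratio -0.04, lower in 10 of 15 pools, adjusted p = 0.0276 by the same permutation test).

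Large and small subunit genes moved nearly together, with small shifts. The ratio of Rpl to Rps UMIs was 1.22 ± 0.02 in LMPs, 1.27 ± 0.03 in osteoblasts, 1.24 ± 0.03 in MALPs, 1.16 ± 0.02 in macrophages and 1.12 ± 0.04 in granulocytes. It was higher in osteoblasts than in LMPs in 16 of 16 pools, and lower in macrophages than in LMPs in 16 of 16 pools (adjusted p = 0.000107 for both, exact sign-flip permutation test). Granulocytes were below macrophages in 12 of 12 pools (adjusted p = 0.000854, same permutation test).

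The study states that cells over 20% Rpl and 15% Rps were removed. Whether a cell had to pass either limit or both is not spelled out, although the study places the limits near an upper percentile of cells. It is taken here as either, which would remove 1998 of 90924 kept cells (2.2%), with both as the other reading, which would remove 909 (1%). The rule falls on classes unequally. Of the cells over either limit, 479 were LMPs, 322 T cells and 957 ungated. Over pools, 39.4% ± 18.1 of T cells (n = 5), 5.72% ± 8.1 of LMPs and 3.95% ± 2.82 of granulocytes were over a limit, against 0.693% ± 1.19 of osteoblasts, 0.523% ± 1.08 of MALPs and 0.239% ± 0.373 of macrophages. The last 3 means lean on their highest pools, at 4.71%, 4.17% and 1.52%, where the median pools held 0.226%, 0.0687% and 0.159%. Counted only when over both limits, the shares were 25.4% ± 19.2 of T cells and 2.54% ± 4.49 of LMPs. Granulocytes held 0.341% ± 0.839 over both limits. Of 10049 macrophages 0 were over both limits, where counting error alone allows a share of up to 0.0299%. None of 5015 osteocyte-like cells was over a limit, where counting error alone allows a share of up to 0.0598%. Both bounds sum the cells of all pools and leave out the spread between pools, so they do not limit the share in other pools. Among LMPs the share over either limit ran from 0.13% in the lowest pool to 28.6% in the highest. LMPs were above osteoblasts, MALPs and macrophages in 16 of 16 pools each (adjusted p = 7.12e-05, exact sign-flip permutation test). Cycling LMPs were below other LMPs by 2.16 percentage points (12 of 15 pools, adjusted p = 0.0229 by the same permutation test), a call that the repeat run did not give (1.65 points, exact permutation p = 0.113). With cells counted only when over both limits, the difference between granulocytes and macrophages fell from 3.7 to 0.341 percentage points and was no longer past the threshold. Over both limits the median granulocyte pool held 0% and the highest 2.94%, and the median and highest LMP pools 0.832% and 15.9%.

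Each gene was then tested between classes by edgeR's quasi-likelihood test on UMIs summed per pool and class, with the pool as a block, TMM scaling, and Benjamini-Hochberg adjustment over all genes at 0.05. TMM sets the median gene near no change, so this scale asks whether RP genes moved relative to most genes. In MALPs over LMPs all 84 tested RP genes fell, with a median log2 fold change of -0.88 (range -1.26 to -0.25) beside a median of 0.01 over 12096 genes, of which 74.1% were called, 37.3% higher and 36.8% lower. In macrophages over LMPs 78 of 84 fell and 1, Rps29, rose, with a median of -0.51 against a background of 84.4% called, 44.9% lower and 39.5% higher. In osteocyte-like cells over osteoblasts 79 fell and none rose (median -0.21, background 53% called, 26.1% higher and 26.9% lower). The 5 that did not pass were Rps27l, Rpl29, Rps27rt, Rpl39l and Rps28. Without the pool block 21 fell and none rose, where 30.2% of all genes were called, 16% higher and 14.2% lower.

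Osteoblasts over LMPs gave another picture on this scale. There 31 of 84 RP genes fell and 14 rose, a smaller share than the 78.9% of all genes called (39.5% lower, 39.4% higher), and their median was -0.05. The share of UMIs fell in the same pools by 0.38 on the log2 scale. Single genes lay on both sides of 0 on the TMM scale, with an interquartile range of -0.13 to 0.03. Leaving out the pool block took these calls to 11 lower and 5 higher, where 69.3% of all genes were called. A stricter gate moved them to 55 lower and 7 higher with a median of -0.18, where 75.4% of all genes were called, so the RP share of calls was there no longer clearly below the background.

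In summed counts on this scale RP genes were higher in T cells and granulocytes than in macrophages. In T cells over macrophages 78 of 84 rose and none fell, with a median log2 fold change of 1.02 and a background of 56.7% called, 27.1% higher and 29.6% lower. In granulocytes over macrophages 68 rose and 1, Rplp1, fell, with a median of 0.38 and a background of 67.3% called, 34% higher and 33.3% lower. Summed counts weigh deep cells more. The 1738 granulocytes below 4000 UMIs held an RP share of 10.9% ± 4.7 (n = 9 pools), and macrophages there 13.5% ± 1.26 (n = 16). From 4000 to 16000 UMIs the shares were 17.1% ± 3.02 (n = 11) and 16.1% ± 1.81 (n = 16). Differences within these depths were not tested. Cycling LMPs over other LMPs had 7 higher and 10 lower (median 0.01, background 44.8% called, 22% higher and 22.9% lower), and the balance of these calls turned with the setting. With the study's RP limits 22 were higher and 3 lower (all genes 22.6% higher and 22.6% lower), in the repeat run 15 and 6 (23% and 21.7%), and with pool 13 left out 8 and 6 (21.1% and 22.1%). Without the count filter 2 were higher and 25 lower (all genes 9.67% and 15.8%), and under the stricter gate 1 and 6 (16.7% and 14.7%). No RP gene was called in either direction without the pool block, where 30% of all genes were, or in cells of 4000 to 16000 UMIs, where 3 pools remained and 7.8% of all genes were.

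**Figure D2:**
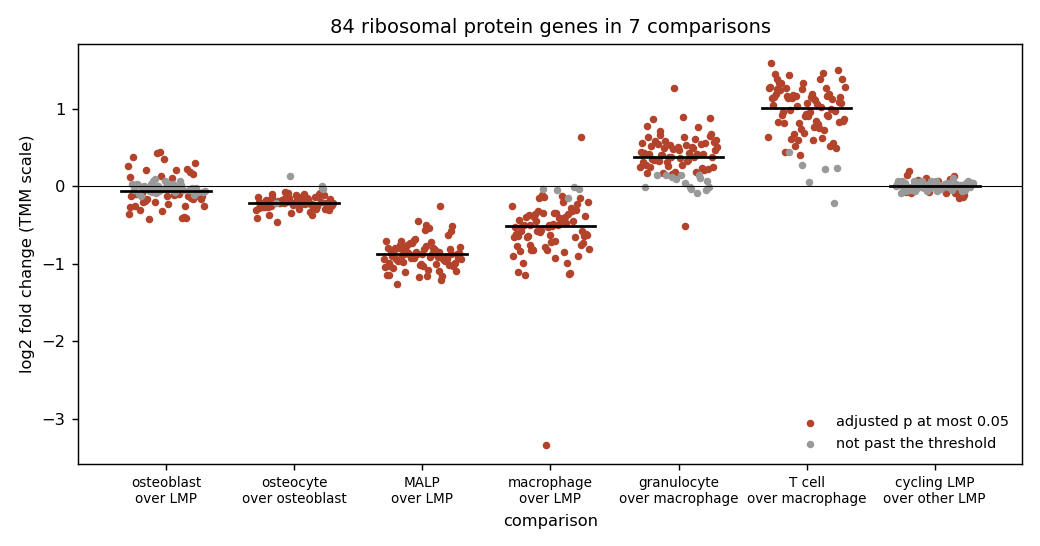
Log2 fold change of each of the 84 tested RP genes (y axis, TMM scale) in 7 comparisons (x axis). Red points passed an adjusted p of 0.05, grey points did not, and the bar is the median of the 84, which runs from -0.88 in MALPs over LMPs to 1.02 in T cells over macrophages. The lowest point is Rpl39l in macrophages over LMPs.

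Genes that work with the family were counted for comparison. Fau and Rack1 both fell in MALPs over LMPs (Rack1 -1.14 ± 0.04 SE) and both rose in T cells over macrophages (Rack1 0.80 ± 0.11). They parted in macrophages over LMPs, where Fau rose (0.13 ± 0.04) and Rack1 fell (-0.36 ± 0.04), and in granulocytes over macrophages, where Fau rose (0.48 ± 0.06) and Rack1 fell (-0.30 ± 0.07). Of 17 translation factors and other genes known to have TOP motifs, 17 fell in MALPs over LMPs, where 36.8% of all genes were lower (Npm1 -1.37 ± 0.05, Eef1b2 -1.27). In macrophages over LMPs 14 fell and 1 rose, where 44.9% of all genes were lower (Eif3e -1.38 ± 0.04). In T cells over macrophages 15 rose and 1 fell, where 27.1% of all genes were higher (Npm1 1.72 ± 0.13, Hnrnpa1 1.64). Of 31 ribosome biogenesis genes, 26 fell and 1 rose in MALPs over LMPs, beside the same 36.8% of all genes lower (Nhp2 -1.04 ± 0.05). In osteoblasts over LMPs 21 fell and 4 rose, a share of calls near the 78.9% of all genes called, with 39.5% of all genes lower and 39.4% higher (Bop1 1.30 ± 0.08, Wdr12 -1.05). In cycling LMPs over other LMPs 13 rose and 1 fell, a share of calls near the 44.8% of all genes called, with 22% of all genes higher and 22.9% lower (Dkc1 0.50 ± 0.07, Nop58 0.48).

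Mitochondrial ribosomal proteins, which serve another ribosome, were measured for 77 genes in MALPs over LMPs, where 46 fell and 9 rose, a share near the 74.1% of all genes called, with a median of -0.15 beside -0.88 for the cytosolic family. Mrps6 was the largest mover there, higher by 2.02 ± 0.07 on the log2 scale. Of 9 genes listed as hosts of small nucleolar RNAs 3 were measured, and all 3 fell in osteoblasts, MALPs and macrophages over LMPs (Snhg12 -1.54 ± 0.10 in macrophages), where 39.5%, 36.8% and 44.9% of all genes were lower. Of 8 growth regulators, 6 rose and 2 fell in osteoblasts over LMPs, where 78.9% of all genes were called (Mtor 1.00 ± 0.06), and 1 rose and 3 fell in MALPs over LMPs, where 74.1% were called (Larp1 -0.58 ± 0.04). Of 10 p53 targets, 7 fell and 1 rose in both comparisons, a share near the 78.9% and 74.1% of all genes called there (Phlda3 -1.39 ± 0.05 in osteoblasts, Eda2r -0.82 ± 0.07 in MALPs). The 10 Diamond-Blackfan genes are members of the family and went with it, all 10 lower in MALPs and macrophages over LMPs and in osteocyte-like cells over osteoblasts, where 84, 78 and 79 of the 84 members fell, and all 10 higher in T cells and granulocytes over macrophages, where 78 and 68 rose.

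Members also parted from the family. To see this, counts were scaled to the RP total of each pool and class, so that a gene that moves with its family has a log2 value of 0, and levels are given as UMIs per 10000 RP UMIs. The scaling moves other genes too: the median over all genes was 0.92 in MALPs over LMPs and -0.95 in T cells over macrophages. On this scale 18 RP genes were above and 31 below the family in osteoblasts over LMPs (74.8% of all genes called, 38.6% above and 36.2% below), 17 and 17 in osteocyte-like cells over osteoblasts (63.5% called, 54.2% and 9.26%), 27 and 23 in MALPs over LMPs (92.6% called, 86.7% and 5.89%), 33 and 36 in macrophages over LMPs (85.5% called, 58.5% and 27%), 24 and 25 in granulocytes over macrophages (69.8% called, 19% and 50.8%), 24 and 24 in T cells over macrophages (73.6% called, 6.9% and 66.7%), and 10 and 13 in cycling LMPs over other LMPs (44.1% called, 20.2% and 23.9%). Without the pool block the 17 and 17 in osteocyte-like cells became 0 and 2, where 32.2% of all genes were called, 28.4% above and 3.71% below. Of the 84 genes, 71 lay within 0.25 of the family in osteoblasts over LMPs, 82 in osteocyte-like cells over osteoblasts, 71 in MALPs over LMPs and 84 in cycling over other LMPs. Fewer did so in comparisons with macrophages, at 51 for macrophages over LMPs, 61 for granulocytes and 45 for T cells over macrophages. Rpl36a alone passed in none of the 7 comparisons of this test.

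**Figure D3:**
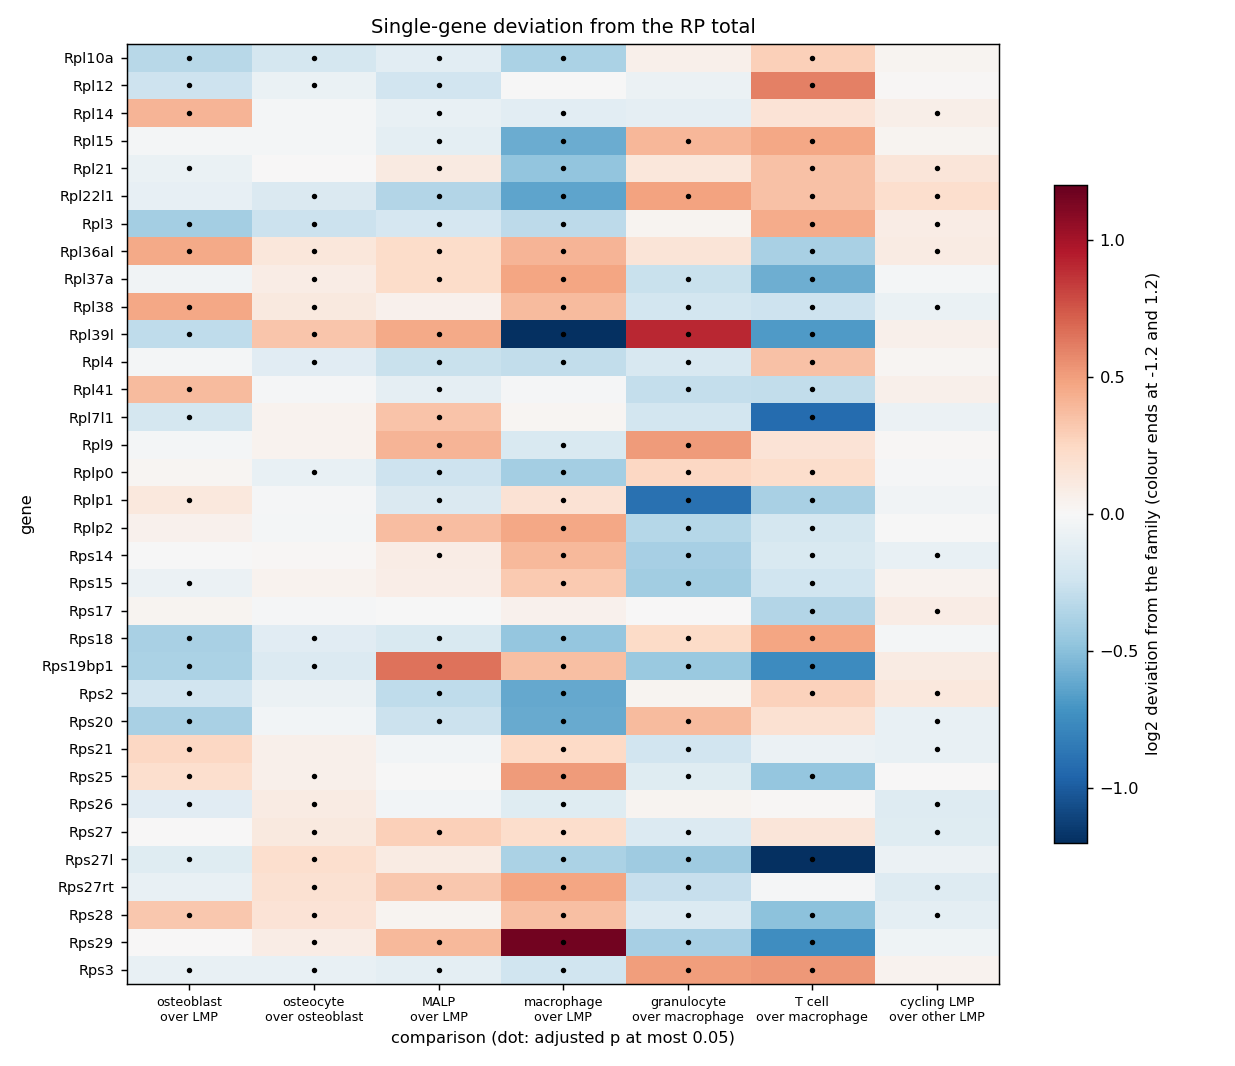
Log2 deviation from the RP total (color, red above and blue below the family) of the genes named by the rule (rows) in 7 comparisons (columns). Dots mark an adjusted p at or below 0.05, and the color scale ends at -1.2 and 1.2. Rpl39l in macrophages over LMPs (-2.82) lies beyond its end.

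The deviation furthest from 0 over the 7 comparisons was that of Rpl39l, a paralog of the exit tunnel protein Rpl39 known from the testis. Per 10000 RP UMIs, the lowest, median and highest pool held 5.06, 6.87 and 13.4 in LMPs, 4.11, 5.25 and 10.2 in osteoblasts, 7.46, 9.6 and 13.6 in MALPs, and 0.56, 0.861 and 2.41 in macrophages. Every mesenchymal pool was above every macrophage pool. The deviation was -2.82 ± 0.11 (SE) in macrophages over LMPs (edgeR adjusted p = 1.94e-16, lower in 16 of 16 pools) and 0.46 ± 0.07 in MALPs over LMPs (adjusted p = 1.38e-06, higher in 14 of 16).

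Rpl39l made up 3.96% ± 1.14 of the UMIs of the pair Rpl39l and Rpl39 in LMPs, 5.19% ± 1.02 in MALPs, 0.716% ± 0.31 in macrophages and 0.332% ± 0.0848 in T cells. The T cell value rests on 99 Rpl39l UMIs over 5 pools. Osteoblast marker RNA was also counted in macrophages (9694 CPM) and T cells, and its part in the low Rpl39l levels there was not tested.

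Rpl22l1, a paralog of the RNA-binding protein Rpl22, held 64.7 ± 8.19 in LMPs, 50.7 ± 6.41 in MALPs and 41.7 ± 4.37 in macrophages per 10000 RP UMIs. In LMPs its lowest, median and highest pools had 48.1, 64.5 and 75.6, and in macrophages 36, 40.9 and 52.4. It was below the family in macrophages over LMPs (-0.63 ± 0.05, adjusted p = 7.47e-12) and in MALPs over LMPs (-0.35 ± 0.05, adjusted p = 2.48e-07), in 16 of 16 pools each. It was above the family in granulocytes over macrophages (0.49 ± 0.06) and in cycling over other LMPs (0.20 ± 0.03, 15 of 15 pools). Its share of the pair with Rpl22 was 50% ± 3.27 in LMPs, 53.1% ± 1.99 in cycling LMPs and 39% ± 2.23 in macrophages.

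Rps27l, a p53-responsive paralog of Rps27, was lowest in T cells relative to the RP total. Per 10000 RP UMIs the T cell pools held 12.4 to 16.7 with a median of 15.6, and their macrophages 27.5 to 42.3. The groups do not overlap, and the deviation was -1.2 ± 0.13 (adjusted p = 1.35e-06), where the median over all genes was -0.95. On the TMM scale Rps27l did not pass in T cells over macrophages. Its mean over pools was 453 CPM in T cells, 535 in macrophages and 424 in granulocytes. Rps27l was also below the family in macrophages over LMPs (-0.38 ± 0.04) and in granulocytes over macrophages (-0.43 ± 0.08), and above it in osteocyte-like cells over osteoblasts (0.20 ± 0.04). Its share of the pair with Rps27 was 12.3% ± 1.54 in T cells, 28.7% ± 4.84 in macrophages and 37.7% ± 6.06 in LMPs. Rps27rt, whose sequence is close to Rps27 so that reads may be split between them, moved with Rps27 in MALPs (0.32 ± 0.05 and 0.28 ± 0.04).

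Rpl36al, the paralog of Rpl36a, was above the family in osteoblasts over LMPs (0.45 ± 0.04, 16 of 16 pools) and in macrophages over LMPs (0.41 ± 0.05), and below it in T cells over macrophages (-0.39 ± 0.12). Its parent Rpl36a did not pass in these comparisons, at -0.06, -0.05 and 0.05. Rpl7l1, which takes part in making the large subunit, was above the family in MALPs over LMPs (0.34 ± 0.08) and below it in T cells over macrophages (-0.92 ± 0.18). Over all genes the median on this scale was 0.92 and -0.95 in these comparisons. On the TMM scale Rpl7l1 fell in MALPs over LMPs with all 84 members and did not pass in T cells over macrophages. Rps19bp1, a binding partner of Rps19, was at 0.65 ± 0.09 in MALPs and -0.38 ± 0.08 in osteoblasts over LMPs, relative to the family. On the TMM scale it fell in MALPs over LMPs with the other members. Its osteoblast call was lost in cells of 4000 to 16000 UMIs and under the stricter gate.

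**Figure D4:**
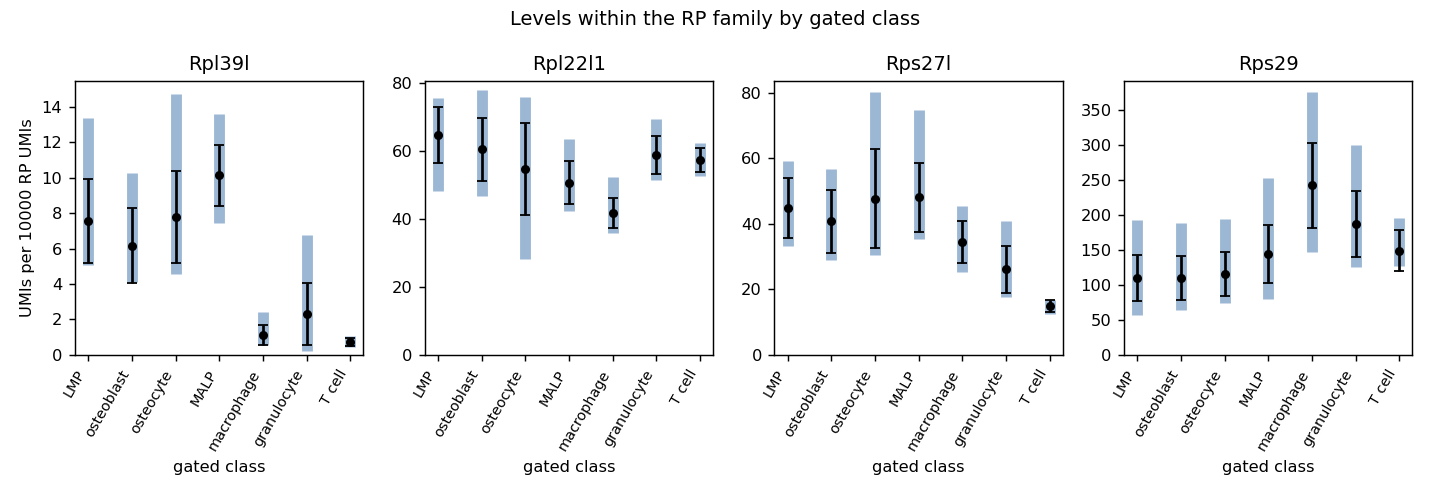
UMIs per 10000 RP UMIs (y axis) of 3 paralogs and of Rps29 in 7 gated classes (x axis). The dot and whiskers are the mean and SD over pools, and the pale bar runs from the lowest to the highest pool. For Rpl39l the macrophage pools end at 2.41, below the lowest LMP pool at 5.06.

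Among standard subunits, Rps29, a small zinc-binding protein near the mRNA channel, deviated most in macrophages. Its lowest, median and highest pools were 57.7, 108 and 193 in LMPs, 79.5, 139 and 254 in MALPs, and 147, 233 and 376 in macrophages. The ranges overlap, but all 16 pools were higher in macrophages, with a deviation of 1.15 ± 0.03 (adjusted p = 1.11e-19). It was also above the family in MALPs over LMPs (0.39 ± 0.04) and below it in T cells over macrophages (-0.75 ± 0.08). Other genes above the family in macrophages over LMPs were Rps25 (0.51 ± 0.04), Rpl37a (0.48 ± 0.04), Rps27rt (0.48 ± 0.06) and the P-stalk member Rplp2 (0.47 ± 0.04). Below it were Rps2 (-0.62 ± 0.04), Rps20 (-0.61 ± 0.03) and Rpl15 (-0.59 ± 0.03), of which Rps20 and Rpl15 showed no overlap between the pools of both classes.

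Rpl3, which lies at the peptidyl transferase center, parted from the family along the osteoblast lineage. It held 98.2 ± 7.6 per 10000 RP UMIs in LMPs, 74.1 ± 6.65 in osteoblasts and 62.5 ± 11.4 in osteocyte-like cells. The deviation was -0.41 ± 0.04 in osteoblasts over LMPs (adjusted p = 3.63e-10, lower in 16 of 16 pools) and -0.26 ± 0.04 in osteocyte-like cells over osteoblasts (adjusted p = 3.12e-06, lower in 15 of 16). In T cells over macrophages it was above the family at 0.45 ± 0.09. With it in osteoblasts over LMPs were Rps20 (-0.39 ± 0.03), Rps18 (-0.39 ± 0.04), Rps19bp1 and Rpl10a (-0.33 ± 0.03).

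On the other side stood Rpl38, a protein known for its part in translating Hox messenger RNAs in the axial skeleton. It held 89 ± 23.2 in LMPs and 122 ± 28 in osteoblasts, with a deviation of 0.46 ± 0.03 (adjusted p = 2.97e-12, 16 of 16 pools). Rpl14 (0.41 ± 0.04), Rpl41 (0.38 ± 0.03) and Rps28 (0.32 ± 0.03) were above the family in the same comparison. In MALPs over LMPs the highest were Rps19bp1, Rpl39l, Rpl9 (0.41 ± 0.04), Rps29 and Rplp2 (0.37 ± 0.04), and the lowest Rpl22l1, Rps2 (-0.31 ± 0.05), Rpl4 (-0.27 ± 0.04), Rps20 (-0.26 ± 0.04) and Rplp0 (-0.25 ± 0.04).

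The P-stalk, the arm of the large subunit that recruits translation factors, did not move as a block. In granulocytes Rplp1 held 158 ± 28.5 against 291 ± 24.1 in the macrophages of the same pools, with no overlap between the groups and a deviation of -0.90 ± 0.08 (adjusted p = 1.2e-09, lower in 12 of 12 pools). In the same comparison Rplp2 was at -0.34 ± 0.05, Rplp0 at 0.25 ± 0.06, and Rpl12, the base of the stalk, at -0.07 ± 0.06, which did not pass. In T cells over macrophages Rpl12 was the highest member (0.61 ± 0.08, 132 to 163 against 81.8 to 102), Rplp0 was at 0.21 ± 0.08, and Rplp1 (-0.39 ± 0.07) and Rplp2 (-0.22 ± 0.08) were below the family. Leaving out pool 5, 8 or 14 ended the T cell call of Rplp0 (0.18 to 0.21), and leaving out pool 5, 6, 14 or 18 that of Rplp2 (-0.22 to -0.19). In MALPs over LMPs Rplp2 was above the family, and Rplp0, Rplp1 (-0.17 ± 0.04) and Rpl12 (-0.23 ± 0.04) were below it.

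Of the 5S RNP pair, Rpl11 passed in all 7 comparisons and Rpl5 in 3. Under other settings Rpl11 lost its call in 5 of 9 in osteocyte-like cells, 4 of 9 in cycling LMPs and 3 of 8 in granulocytes. Its other calls were lost in at most 1 setting each. Rpl5 lost its call in 4 of 9 settings in osteoblasts, 3 of 9 in MALPs and 1 of 8 in granulocytes. Rpl11 was above the family in osteoblasts (0.14 ± 0.03) and MALPs (0.20 ± 0.04) over LMPs and in T cells over macrophages (0.29 ± 0.09), and below it in macrophages over LMPs (-0.14 ± 0.03). In MALPs over LMPs Rpl5 was at -0.10 ± 0.04, opposite to Rpl11, and in cells of 4000 to 16000 UMIs it was at 0.00216 and did not pass. In granulocytes over macrophages the other standard members furthest from the family were Rpl9 (0.51 ± 0.06), Rps3 (0.50 ± 0.05), Rpl15 (0.40 ± 0.05), Rps15 (-0.42 ± 0.06) and Rps14 (-0.40 ± 0.05). T cells shared the direction for Rps3 (0.52 ± 0.08) and Rpl15 (0.46 ± 0.08) over the same macrophages, which serve both comparisons. In cycling LMPs the deviations were at most 0.2, with Rpl21 (0.15 ± 0.03) and Rps2 (0.13 ± 0.03) above, Rps2 at -0.000796 in cells of 4000 to 16000 UMIs, and Rps26 (-0.15 ± 0.03) and Rps27 (-0.14 ± 0.03) below the family.

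RP genes differed between pools as well as between classes. Pools hold cells of different outbred mice. Pool 2 stood apart over many members at once: of 84 genes it was the highest pool for 17 and the lowest for 20 in LMPs, 13 and 21 in osteoblasts, 17 and 19 in MALPs, and 16 and 15 in macrophages. No other pool was at either end for more than 19 genes in any of these classes. In LMPs the SD over pools of the log2 level within the family, after counting error was taken off, had a median of 0.15 over 84 genes, and 20 genes were above 0.25, or 15 with pool 2 left out. The 6 with the largest values were Rpl35 (0.80), Rpl29 (0.75), Rps19bp1 (0.45), Rpl7l1 (0.43), Rps29 (0.42) and Rpl39l (0.40).

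Rpl35 (chr2:39001580-39005624 in GENCODE M21, GRCm38), a protein at the exit of the nascent chain tunnel, ranged 10.7-fold over the LMP pools, and 5.94-fold without pool 2. In LMPs its level per 10000 RP UMIs was 9.67 in pool 17 and 15.3 in pool 18, with a median of 46.1 and a highest value of 103 in pool 2. In macrophages of the same pools it was 12.8 in pool 17 and 18.1 in pool 18, with a median of 54.1 and 97.8 in pool 2. The same pools were lowest and highest in osteoblasts (10.2 and 101) and MALPs (11.8 and 105). The lowest LMP value rests on 2776 UMIs.

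Rpl29 (chr9:106429454-106431568), a surface protein of the large subunit that binds heparin, ranged 7.6-fold in LMPs, from 5.71 in pool 4 to 43.4 in pool 10, with a median of 25.2. The width of this range leans on pool 4, since the next lowest LMP pool was pool 14, at 13.9. In macrophages pool 4 was again lowest, at 3.64, with pool 6 next at 12.4, and pool 10 was highest, at 48. In osteoblasts and MALPs pool 4 was lowest too, and the highest were pools 18 and 17. Rps29 ran from 57.7 in pool 10 to 193 in pool 2 in LMPs, and the same 2 pools were the ends in macrophages, at 147 and 376. Without pool 2 it ranged 2.72-fold in LMPs. The high values of Rpl35 and Rps29 in pool 2 stand among those of many other members in that pool.

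Whether such differences recur in another lineage of the same pools was tested by correlating LMPs with macrophages over 16 pools, with 100000 permutations per gene and Benjamini-Hochberg adjustment over 9588 genes. Of 84 RP genes 78 passed, all with a positive correlation, against 61.6% of all genes. The median Pearson r was 0.84 over the RP genes and 0.61 over all. Genes entered this test from a median of 10 UMIs over pools, and most RP genes held far more. The part of count level in this difference was not tested. With levels scaled to all UMIs in place of the RP total, 75 RP genes passed against 31.7% of all genes, with median r of 0.83 and 0.46. With pool 2 left out 76 RP genes passed against 59% of all genes, with median r of 0.80 and 0.62, and r was 0.99 for Rpl35, 0.90 for Rpl29 and 0.96 for Rps29. For Rpl35 r was 0.99 and Spearman's rho 0.95 (p = 1e-05 for both, the smallest these permutations can give), and r was 0.98 without the 2 pools farthest from the median. Rpl29 had r = 0.90 (permutation p = 1e-05, rho = 0.84, 0.81 without 2 pools), and Rps29 r = 0.97 (permutation p = 1e-05, rho = 0.91, 0.95 without 2 pools).

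Rpl39l was weaker, with r = 0.61 (permutation p = 0.0127, adjusted p = 0.025), rho = 0.49 (permutation p = 0.0558) and r = 0.39 without the 2 farthest pools, so its relation rests on those pools. Without pool 2 it did not pass (r = 0.44, permutation adjusted p = 0.132). Among those that did not pass were Rpl22l1 (r = 0.48), Rps25 (r = 0.52), Rpl3 (r = 0.43) and Rpl24 (r = 0.49). With pool 2 left out Rpl22l1 passed (r = 0.57, permutation adjusted p = 0.0461), while Rps25, Rpl3 and Rpl24 did not. LMPs and macrophages of a pool share mice, culture, library and free RNA, and these cannot be told apart here. Reads of RP genes can also match processed copies elsewhere in the genome, so a level can depend on which reads the aligner could place, and the part of this was not tested.

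**Figure D5:**
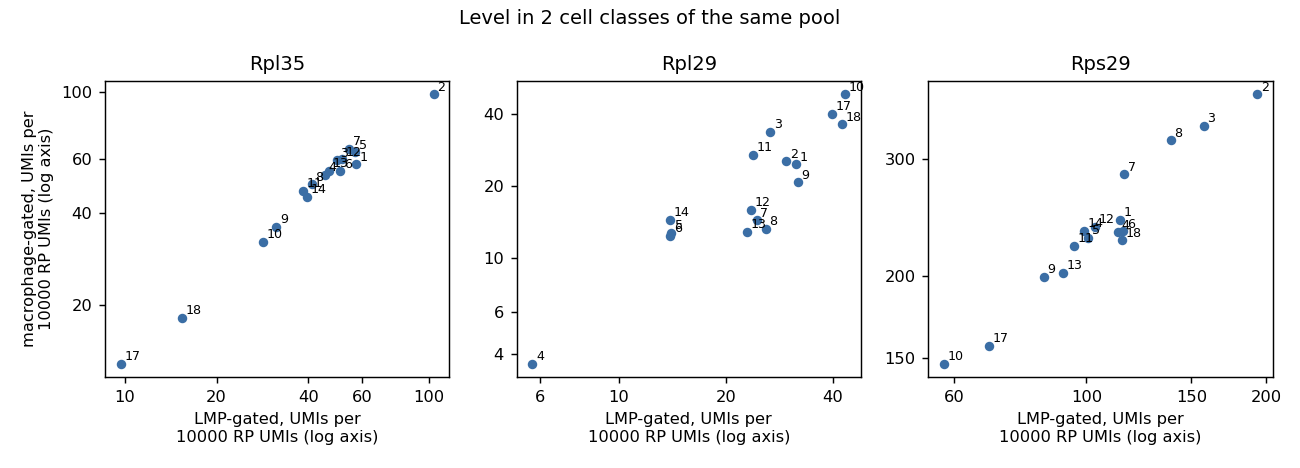
UMIs per 10000 RP UMIs in LMP-gated cells (x axis) and macrophage-gated cells (y axis) of the same pool for Rpl35, Rpl29 and Rps29, on log axes, with pool numbers beside the points. Pools 17 and 18 are lowest and pool 2 highest for Rpl35 in both classes, and pool 4 is lowest for Rpl29.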

How the data were processed

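Single-cell RNA sequencing libraries (10x Genomics 3′ v2) of 16 pools, each sequenced in 2 runs (32 samples), were used. The authors deposited raw UMI counts per gene and barcode, made with Cell Ranger 5.0.0 against GRCm38 (mm10) and limited to called cells. Cells with 400 to 6200 genes and at most 10% mitochondrial UMIs were kept. A cell joined a class if its mean marker z score reached 0.5, led the next class by 0.5 and rested on at least 3 detected markers. Osteocyte-like cells were osteoblast-gated cells with an osteocyte score of at least 1 and 2 markers, and cycling LMPs had a cycling score of at least 1 and 3 markers. No doublet caller was run, and the margin was the only guard against doublets.

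Counts were summed per pool and class (at least 20 cells) and tested with edgeR 4.0.16 in R 4.3.3 (filterByExpr, robust quasi-likelihood fit), scaled by TMM or by the RP total, with Benjamini-Hochberg adjustment over all genes. A member is part of the RP total it is scaled by. Shares were compared by exact sign-flip permutation over pools. All tests were two-sided. The pool was a block because both classes of a pool are cells of the same mice and library. DESeq2 1.42.0, other filters, gates, depths, scalings and the repeat run were alternatives. The edgeR fits were tested on simulated data. Pools may differ technically, and p-values measure the spread between pools only. Limits for a count of 0 cover counting error over the summed cells, not the spread between pools.

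Genes named were, in each comparison, the 5 furthest above and the 5 furthest below the family among those past the threshold, the 6 with the largest spread over pools, and the paralogs, their parents, the P-stalk and the 5S RNP. Other genes of the lists are those with the largest changes. The members, gene lists and tests were chosen with earlier results of these data known. Reads of near-identical copies (Rps27rt and Rps27, Rpl36al and Rpl36a, Rpl39l and Rpl39, and pseudogenes) can be split or lost in counting, so these genes are uncertain. Python 3.11.15 with numpy 2.4.6, scipy 1.17.1, pandas 2.3.3 and matplotlib 3.10.9 was used for the rest. Some items are not reported here.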

Additional observations from a re-analysis of the deposited data

Results flagged for a closer look

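In osteoclast-like cells Rps29 stood at 325 UMIs per 10000 RP UMIs in pool 2, far from the other pools by Dixon's criterion. Of 15 groups examined this way, chance alone marks about 1 in 20. Pool 2 was also the highest pool for Rps29 in LMPs, osteoblasts, MALPs and macrophages.

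Rows annotated as RP pseudogenes, which enter no comparison, held 8.08 ± 1.17 UMIs per 10000 RP UMIs in LMPs (6.55 to 10.7 over 16 pools). Rps12-ps3 (1.87), Rpl10-ps3 (1.69) and Rpl9-ps6 (1.69) held most of them. Whether these UMIs come from the pseudogenes or from their parents was not tested.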

How the results depend on the processing

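Of 2137 values recomputed under other settings, 1530 of single genes and 377 of shares and counts kept their direction and side of the threshold or, for counts, stayed within 1.5 times. Among single genes 148 values lost their call, 20 gained one and 4 changed sign, and among shares and counts 52 moved, 3 lost a call and 3 gained one. The lost calls fell on 58 of 181 deviations from the family, with 55 lost without the replicate block, 27 in cells of 4000 to 16000 UMIs, 18 under the stricter gate and 16 without a filter on low counts. In T cells over macrophages Rplp2 lost its call in 10 of 13 settings, and Rplp0, Rpl22 and Rpl39l each in 7. In cycling LMPs Rpl36al lost it in 6 of 9 and Rps27rt in 5, and Rpl11 in osteocyte-like cells in 5. Shares kept their direction when any 1 pool was left out: -0.40 to -0.37 for osteoblasts over LMPs, -0.28 to -0.26 for osteocyte-like cells over osteoblasts, -0.64 to -0.61 for MALPs and -0.60 to -0.57 for macrophages over LMPs, 0.04 to 0.09 for granulocytes and 0.94 to 1.03 for T cells over macrophages, and -0.02 to -0.01 for cycling LMPs. For every value below the cause was not tested.

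Without the replicate block, which drops the pairing of classes within a pool, the log2 ratio of the T cell share over macrophages stayed at 0.99 but passed (permutation adjusted p = 0.0112). RP genes called fell to 5 higher and 11 lower in osteoblasts (69.3% of all genes called), 21 lower in osteocyte-like cells (30.2%), and 0 higher and 0 lower in cycling LMPs (30%). Genes above and below the family became 11 and 13 in osteoblasts (58.7% of all genes called), 0 and 2 in osteocyte-like cells (32.2%), 15 and 13 in MALPs (88.6%), 14 and 11 in granulocytes (63.5%), 8 and 11 in T cells (66%), and 1 and 0 in cycling LMPs (19.7%). Percentages in parentheses below are likewise the share of all genes called in that fit.

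In cells of 4000 to 16000 UMIs, 7 genes were higher (65.5%) and 19 below the family (59.6%) in osteoblasts, 1 was higher (35%), 9 above and 7 below (64.2%) in osteocyte-like cells, 2 were higher in macrophages (79.6%) and 2 lower in granulocytes (67.6%). Cycling LMPs, with 3 pools left, had 0 higher and 0 lower (7.8%), 0 above and 0 below (6.75%), and a difference in cells over a limit of -1.02 points. Deviations changed sign there for Rpl5 in MALPs (0.00216), Rpl12 in macrophages over LMPs (0.14) and Rps2 in cycling LMPs (-0.000796).

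The stricter gate gave 7 higher and 55 lower in osteoblasts (75.4%), 11 above and 9 below in osteocyte-like cells (39.6%), and 1 higher and 6 lower (31.5%), 3 above and 4 below (29.6%) in cycling LMPs, and put Rps27l in osteoblasts at 0.00106. With the study's RP limits, 19 were lower in osteoblasts (78.6%), 14 below the family in T cells (58.4%), and 22 higher and 3 lower in cycling LMPs (45.2%). Without a filter on low counts, 2 were higher in macrophages (57.1%), 2 lower in granulocytes (39.7%), 1 lower in T cells (35.2%), and 2 higher and 25 lower (25.5%), 5 above and 8 below (22.8%) in cycling LMPs. In the repeat run 1 was higher in osteocyte-like cells (53.3%), cycling LMPs had 15 higher and 6 lower (44.8%), and their difference in cells over a limit was -1.65 points. DESeq2 put 19 above the family in cycling LMPs (43.3%), and without pool 13 cycling LMPs had 6 lower (43.2%). With cells over both limits, the granulocyte difference was 0.341 points. The total without abundant genes, the leave-one-out ranges of shares, those of T cell genes and the pool correlations without pool 2 were chosen after seeing the data. The total without abundant genes gave 0.28 for granulocytes and -0.0396 for cycling LMPs, both past the threshold.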
